A study of Homo sapiens with 6 samples.

Results

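The genes described here encode 10 histone lysine demethylases of the Jumonji C (JmjC) family, namely KDM3A, KDM3B, JMJD1C, KDM4A, KDM4B, KDM4C, KDM5A, KDM5B, KDM6A and KDM6B. They were chosen by name, as the rows of the deposited expression table whose gene symbol equals one of these names, and were 10 of the 35268 named genes in the table. All 10 were read deeply enough to be tested, with between 285 and 5514 reads per library.

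The expression table came from mRNA sequencing of Rh30, an established cell line of fusion-positive rhabdomyosarcoma, a childhood tumor of the muscle lineage that carries the PAX3-FOXO1 fusion. One group of 3 libraries came from Rh30 cells given 1 µM YK-4-279, used as the racemic compound, for 24 hours, and the other group of 3 came from Rh30 cells given its vehicle, DMSO, for the same time. YK-4-279 is a small molecule inhibitor aimed at transcription factors of the ETS family. Both groups share 1 cell line and its fusion, and since the labels do not state that the libraries of a group came from separate experiments, the p-values measure only the spread between these libraries. The libraries held between 16724650 and 24677433 reads on named genes. All 10 muscle and rhabdomyosarcoma markers listed were expressed, MYOD1 at 37118 and 36868 normalized counts in DMSO and YK-4-279. Of these 0 were called higher and 1 lower by limma, where 1.26% and 2.15% of all genes tested were. The gene was NELL1, at -0.24 on the log2 scale (adjusted p = 0.0488 by limma, 0.0614 by edgeR and 0.0332 by DESeq2). MYOG and DES, higher at an unadjusted p under 0.05, were at 0.23 and 0.14, and at 0.08 and 0.08 without DMSO replicate 1. Without that library limma called 0 higher and 3 lower, where 4.62% and 8.46% of all genes were called. These were NELL1 (-0.20), FGFR4 (-0.17) and CDH15 (-0.14). Among markers of other cell types KRT5 was at 0 in all 6 libraries and CDH1, PTPRC and CD3E were at no more than 1.71 in any. The epithelial marker EPCAM had means of 55.8 and 73.4 normalized counts in DMSO and YK-4-279 (limma adjusted p = 0.305), and the endothelial markers PECAM1 and CDH5 had means between 10.6 and 23.5. Of 9 such markers 3 were read deeply enough to be tested, with 0 called by limma or edgeR. In limma 0 were at an unadjusted p under 0.05, and the median log2 fold change was 0.38. DESeq2 gave an adjusted p for EPCAM alone (0.376) and none for PECAM1 or CDH5. The part of these markers in the results was not tested. DMSO replicate 1 stood apart, as its correlation with the other libraries across genes averaged 0.989 where those of the other 5 averaged 0.992 or more, and values without it are given beside the results that it moves most.

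JmjC demethylases are iron-dependent enzymes that use oxygen and 2-oxoglutarate to remove methyl groups from lysines of histone tails. The KDM3 enzymes act on mono- and dimethylated H3K9, the KDM4 enzymes on methylated H3K9 and H3K36, the KDM5 enzymes on methylated H3K4 and the KDM6 enzymes on methylated H3K27. Methylation of H3K9 and H3K27 accompanies silent chromatin and that of H3K4 active chromatin, so that the families oppose different writers. KDM3A is the member that the study centres on, together with the ETS factor ETS1.

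The comparison asked whether the demethylase genes change when the cells are given YK-4-279. In normalized counts, KDM6B rose from 1638 ± 234 to 2087 ± 120 (SD, n = 3 each) and was the only one of the 10 past an adjusted p of 0.05 (limma with Benjamini-Hochberg adjustment over the 13930 genes tested), while KDM5B, from 1576 ± 198 to 1931 ± 49.2, lay just outside it. KDM3A did not pass, at 2064 ± 301 and 2010 ± 63.9. Thus 1 of 10 was called higher, where 1.26% of all genes tested were, and 0 were called lower, where 2.15% of all genes were. At an unadjusted p under 0.05 in limma 2 were higher, against 7.69% of genes tested, and 0 lower, against 11.0%. On the reads, edgeR and DESeq2 each called 2 higher and 0 lower. Of all genes tested edgeR called 1.48% higher and 1.86% lower. DESeq2 called 2.03% and 3.36% of the 11769 genes to which it gave an adjusted p. On the log2(normalized count + 1) scale, on which all fold changes here are given, 8 members lay above 0 and 2 below, with a median of 0.08 (0.13 without DMSO replicate 1), whereas 48.0% of all genes lay above 0 and their median was -0.007. That split was the same with TMM scaling, where 52.1% of all genes lay above 0. After quantile normalization 9 members lay above 0, against 49.6% of all genes. After correction of each library for GC content and transcript length 6 did, against 42.9%. With YK-4-279 replicate 1 or 3 left out, 7 lay above 0, against 48.2% and 48.3% of all genes. In 3 members the lowest YK-4-279 library lay above the highest DMSO library, and in 1 the opposite held, against 10.9% and 15.1% of all genes. The libraries are of bulk RNA, in which less RNA per cell and fewer cells in a given state cannot be told apart.

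**Figure D1:**
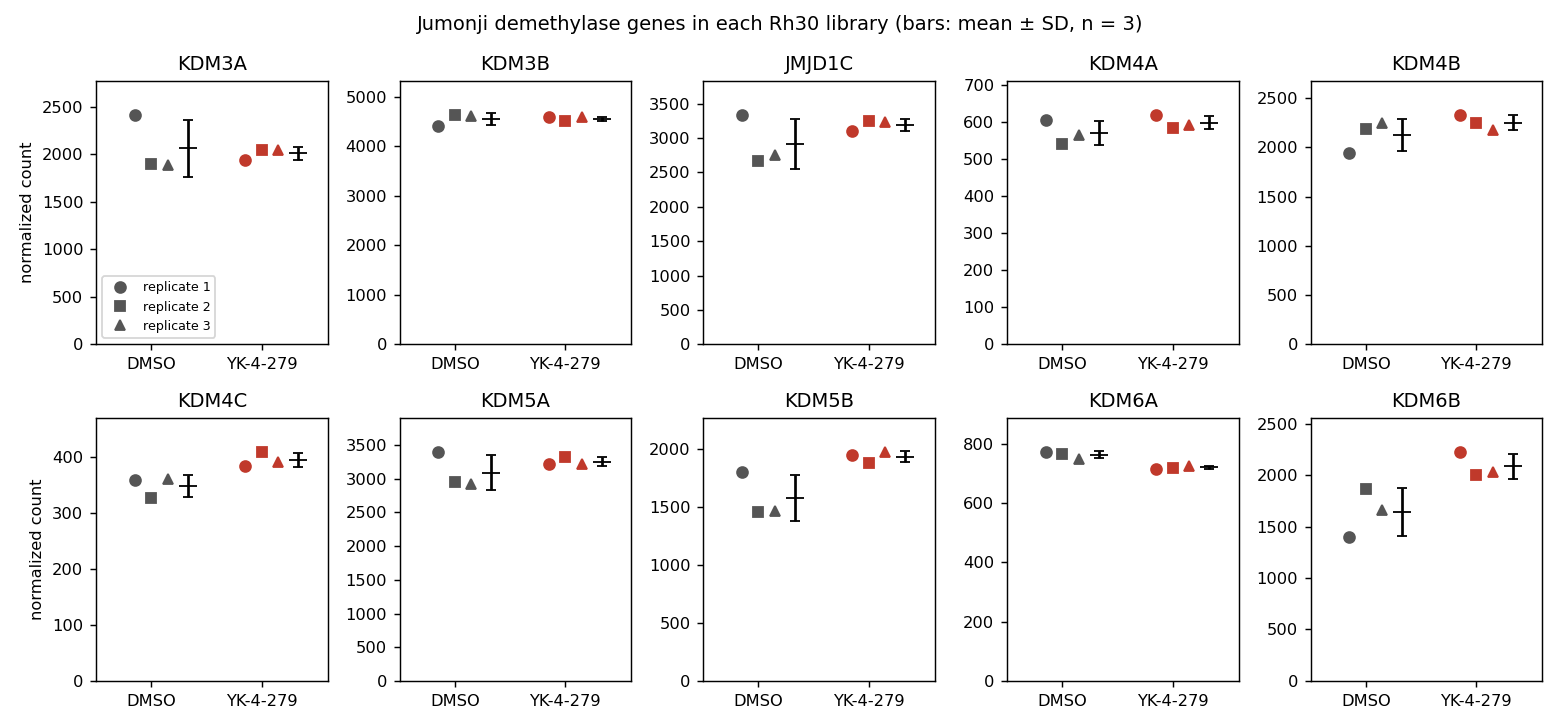
Normalized count of each of the 10 demethylase genes (vertical axes, from 0) in the 3 DMSO and 3 YK-4-279 libraries of Rh30 cells, with a marker shape for each replicate and the mean ± SD (n = 3) beside each group. The groups are apart in KDM4C, KDM5B and KDM6B, higher with YK-4-279, and in KDM6A, lower with it, and DMSO replicate 1 (circle) lies away from the other DMSO libraries in KDM3A, JMJD1C, KDM4B, KDM5A, KDM5B and KDM6B.

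KDM3A, an H3K9 demethylase gene on chromosome 2 from 86440647 to 86492716 (hg38, plus strand, GENCODE v44), had 2412, 1897 and 1884 normalized counts in DMSO replicates 1, 2 and 3 and 1937, 2048 and 2046 with YK-4-279. DMSO replicate 1 was the highest of the 6 libraries and DMSO replicates 2 and 3 the lowest, so that the groups overlapped. The log2 fold change was -0.03 (standard error 0.087, 95% confidence interval -0.22 to 0.16, limma adjusted p = 0.893). Without DMSO replicate 1 the direction turned, to 0.09, again without passing the threshold (adjusted p = 0.232). In absolute size the change ranked at percentile 14.5 of all genes tested.

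Since ETS factors bind DNA at a GGAA core, sequence of KDM3A is shown, from RefSeq on GRCh38.p14, at chr2:86441121-86441271 on the plus strand. The RefSeq promoter table lists a pair of KDM3A starts, both of them inside the gene as GENCODE draws it, and these are the bases of the 250-base window before the more upstream of them that no GENCODE exon covers, and capitals mark GGAA or its reverse complement TTCC, of which there are 4.
KDM3A: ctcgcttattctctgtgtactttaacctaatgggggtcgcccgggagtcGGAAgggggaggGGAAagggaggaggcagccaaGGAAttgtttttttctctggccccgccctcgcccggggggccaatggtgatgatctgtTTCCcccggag
A GGAA on either strand is a very common sequence, present in 92.7% of the 35116 promoter windows of that length, with a median of 3 per window, and in 11 of the 14 windows of the demethylase genes. The longer ETS motif CCGGAAGT, which contains that core, was searched on both strands and found in 3.42% of all windows and in 0 of the 14. The core ACGTG, bound by hypoxia-inducible factors and by other proteins, was found in 18.5% of all windows and in 4 of the 14, those of JMJD1C, KDM4B, KDM4C and KDM6A, also on either strand. Binding was not measured, and these matches are a description of the letters alone.

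KDM3B, the closest relative of KDM3A, lies on chromosome 5 from 138352685 to 138437028 (plus strand). Its normalized counts were 4413, 4620 and 4604 in DMSO and 4577, 4509 and 4580 with YK-4-279, so that the groups overlapped and all libraries lay close together. The log2 fold change was 0.00 (standard error 0.054, 95% confidence interval -0.11 to 0.12, adjusted p = 0.983), which is the narrowest interval among the 10 genes, and it was -0.02 without DMSO replicate 1 and -0.03 after the GC and length correction, neither past the threshold. JMJD1C, the third gene of the KDM3 family, on chromosome 10 from 63167221 to 63521850 (minus strand), had 3331, 2672 and 2749 normalized counts in DMSO and 3098, 3251 and 3236 with YK-4-279. The highest of its 6 values was DMSO replicate 1, while the other DMSO libraries were the lowest. Over all libraries its log2 fold change was 0.14 (standard error 0.078, adjusted p = 0.364), and without DMSO replicate 1 it was 0.24 (adjusted p = 6.37e-05). GENCODE places other genes on both strands within JMJD1C, KDM4A, KDM4C, KDM5B and KDM6B and on the opposite strand of KDM5A, and whether counting used strand is not given in the sources used here, so the reads of these members could include theirs.

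Within a library, KDM3A was read at 0.547, 0.411 and 0.409 times the level of KDM3B in the DMSO libraries and at 0.423, 0.454 and 0.447 times it with YK-4-279, both in normalized counts. The mean log2 ratio differed by -0.032 (exact permutation test, two-sided, n = 3 each, p = 1.0, the smallest possible being 0.1) and by 0.106 without DMSO replicate 1. A ratio within 1 library does not depend on how the library was scaled, and the groups overlapped here too.

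The KDM4 genes, which encode demethylases of H3K9 and H3K36, were higher in the mean with YK-4-279, but none passed the threshold in limma. KDM4C, on chromosome 9 from 6720863 to 7175648 (plus strand), had 359, 327 and 362 normalized counts in DMSO and 384, 410 and 392.2 with YK-4-279. All 3 YK-4-279 libraries lay above all 3 DMSO libraries. The log2 fold change was 0.18 (standard error 0.088, 95% confidence interval -0.01 to 0.37, adjusted p = 0.293), and this was the least read of the 10 genes, where counting alone gives a coefficient of variation of up to 5.92% per library.

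KDM4A, on chromosome 1 from 43650149 to 43705518 (plus strand), had 604, 540 and 564 normalized counts in DMSO and 618, 585 and 592 with YK-4-279, overlapping between the groups, which gave a log2 fold change of 0.07 (standard error 0.078, adjusted p = 0.656), or 0.12 without DMSO replicate 1 (adjusted p = 0.304). KDM4B, on chromosome 19 from 4969113 to 5153598 (plus strand), had 1942, 2188 and 2250 normalized counts in DMSO and 2324, 2246 and 2176 with YK-4-279, which gave a log2 fold change of 0.08 (standard error 0.068, adjusted p = 0.550). Its lowest value was DMSO replicate 1, and without that library the log2 fold change was 0.02 (adjusted p = 0.851). After the GC and length correction it was -0.0052. The ratio of KDM4B to KDM4A differed by 0.009 in the mean log2 between groups (exact permutation test, two-sided, n = 3 each, p = 1.0) and by -0.098 without DMSO replicate 1.

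KDM5B, which encodes an H3K4 demethylase, had 1804, 1457 and 1467 normalized counts in DMSO and 1945, 1877 and 1972 with YK-4-279. Every YK-4-279 library lay above every DMSO library, and DMSO replicate 1 lay nearer to the treated libraries than to its own group. The mean was 22.5% higher with YK-4-279, and the fit gave a log2 fold change of 0.30 (standard error 0.081, 95% confidence interval 0.13 to 0.47), whose limma adjusted p of 0.0606 missed the threshold. It passed with edgeR (adjusted p = 0.0444), with DESeq2 (adjusted p = 0.0128) and in limma without DMSO replicate 1, where the log2 fold change was 0.40 (adjusted p = 1.64e-08). With the GC and length correction it passed too (limma adjusted p = 0.000842), so that 4 of the 17 alternatives called it. Limma fits that missed included TMM scaling (adjusted p = 0.0514), quantile normalization (0.05465) and eBayes without trend (0.227). It also missed without DMSO replicate 2 or 3 (0.103 and 0.168) and without YK-4-279 replicate 1, 2 or 3 (0.2715, 0.191 and 0.236). KDM5B is transcribed from the minus strand of chromosome 1, from 202724495 to 202808487, and the 184 bases before its start, at chr1:202808488-202808671 on the minus strand, hold 2 ETS cores, marked by capitals.
KDM5B: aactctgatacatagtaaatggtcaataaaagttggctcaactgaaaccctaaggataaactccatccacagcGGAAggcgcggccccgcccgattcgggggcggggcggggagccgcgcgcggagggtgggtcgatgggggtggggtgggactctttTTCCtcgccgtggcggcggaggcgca

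KDM5A, the H3K4 demethylase gene on chromosome 12 from 280057 to 389320 (minus strand), had 3396, 2948 and 2927 normalized counts in DMSO and 3220, 3330 and 3216 with YK-4-279. DMSO replicate 1 was the highest library and the other DMSO libraries were the lowest. The log2 fold change was 0.08 (standard error 0.066, adjusted p = 0.564), and it was 0.15 without DMSO replicate 1 (adjusted p = 0.0127). KDM5B stood at 0.531, 0.494 and 0.501 times the normalized counts of KDM5A in DMSO and at 0.604, 0.564 and 0.613 times them with YK-4-279. These ratios did not overlap between groups, and DMSO replicate 1 was the highest of the DMSO libraries. The mean log2 ratio was 0.222 higher with YK-4-279 (exact permutation test, two-sided, n = 3 each, p = 0.1, the smallest this design allows) and 0.253 higher without DMSO replicate 1.

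KDM6B, also known as JMJD3, encodes an H3K27 demethylase that is readily induced in many cell types, and lies on chromosome 17 from 7834217 to 7854796 (plus strand). It had 1395, 1861 and 1659 normalized counts in DMSO and 2224, 2002 and 2034 with YK-4-279. Every YK-4-279 library was above every DMSO library, with DMSO replicate 1 the lowest of all and YK-4-279 replicate 1 the highest. The fitted change was 1.28-fold, or 0.36 on the log2 scale (standard error 0.091, 95% confidence interval 0.16 to 0.55, limma adjusted p = 0.0489), and edgeR and DESeq2 gave adjusted p-values of 0.0469 and 0.00746. Without DMSO replicate 1 it was 0.25, still past the threshold (adjusted p = 0.00038). The call lay close to the threshold and was lost in 8 of the 17 alternatives computed, among them TMM scaling (adjusted p = 0.058), quantile normalization (0.0598), limma's eBayes without trend (0.226) and fits without DMSO replicate 3 (0.0895) or without YK-4-279 replicate 1, 2 or 3 (0.281, 0.168 and 0.161), while the log2 fold change stayed above 0 in all 17.

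KDM6B has a pair of annotated starts in the RefSeq promoter table, shown here because this was the gene that passed the test. The 250 bases before the upstream start, at chr17:7833967-7834216, hold 0 GGAA cores, and the 237 exon-free bases before the downstream start, at chr17:7839667-7839903, hold 5, marked by capitals. Both are on the plus strand. The counts are per gene and do not separate transcripts from either start.
KDM6B upstream start: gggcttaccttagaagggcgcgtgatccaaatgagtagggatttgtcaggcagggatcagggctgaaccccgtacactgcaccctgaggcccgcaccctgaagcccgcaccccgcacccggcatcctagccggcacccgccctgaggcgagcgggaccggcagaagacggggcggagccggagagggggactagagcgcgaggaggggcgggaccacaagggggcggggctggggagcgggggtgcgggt
KDM6B downstream start: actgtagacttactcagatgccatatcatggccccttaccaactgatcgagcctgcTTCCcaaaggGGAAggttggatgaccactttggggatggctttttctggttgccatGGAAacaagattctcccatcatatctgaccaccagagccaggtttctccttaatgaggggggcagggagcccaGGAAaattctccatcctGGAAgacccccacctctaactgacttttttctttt

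KDM6A, also known as UTX, the other H3K27 demethylase gene, lies on chromosome X from 44873188 to 45112779 (plus strand). It had 773, 767 and 750 normalized counts in DMSO and 716, 721 and 726 with YK-4-279. The groups did not overlap, and it was the only member in which every treated library lay below every control. The log2 fold change was -0.08 (standard error 0.069, 95% confidence interval -0.23 to 0.07) and did not pass the threshold (limma adjusted p = 0.558), with SDs of 12.1 and 5.44 normalized counts within DMSO and YK-4-279. The ratio of KDM6B to KDM6A was 1.8, 2.42 and 2.21 in the DMSO libraries and 3.11, 2.78 and 2.8 with YK-4-279, in normalized counts. Its groups did not overlap either. The mean log2 ratio was 0.44 higher with YK-4-279 (exact permutation test, two-sided, n = 3 each, p = 0.1, the smallest possible) and 0.32 higher without DMSO replicate 1.

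**Figure D2:**
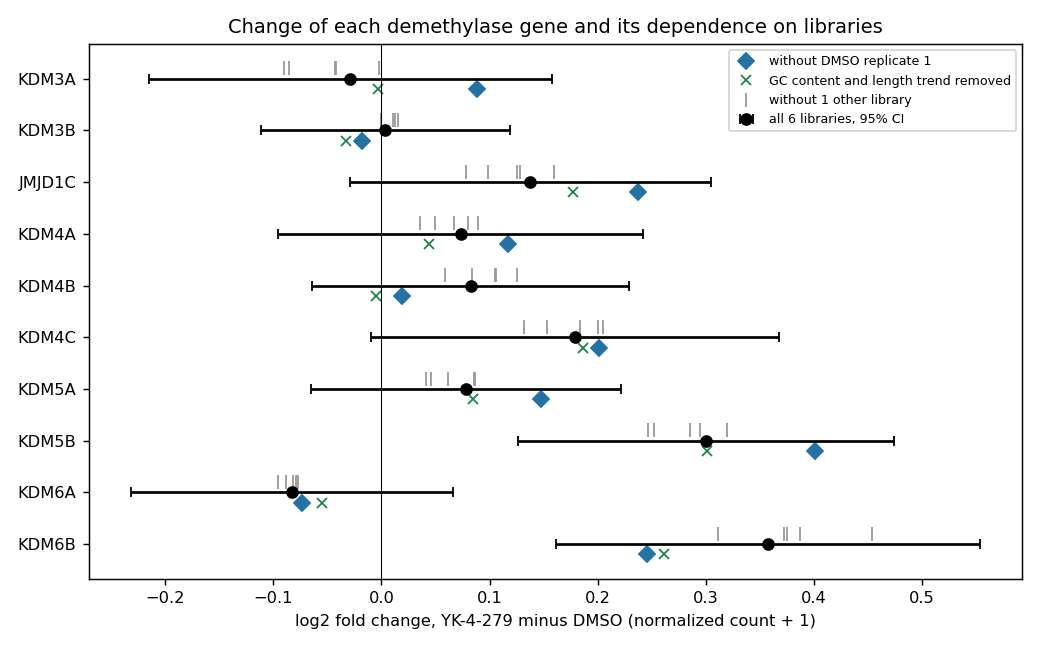
Log2 fold change of each demethylase gene, YK-4-279 minus DMSO on normalized count + 1 (horizontal axis), over all 6 libraries with its 95% confidence interval (black), without DMSO replicate 1 (diamonds), without each other library (ticks) and with libraries corrected for GC content and transcript length (crosses). The interval lies above 0 in KDM5B (0.13 to 0.47) and KDM6B (0.16 to 0.55), and leaving out DMSO replicate 1 moves KDM3A from -0.03 to 0.09 and JMJD1C from 0.14 to 0.24.

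The dependence on DMSO replicate 1 followed a pattern among the members. Relative to the mean of DMSO replicates 2 and 3, this library was higher on the log2 scale by 0.35 in KDM3A, 0.30 in KDM5B, 0.30 in JMJD1C and 0.21 in KDM5A, and its differences in KDM4B and KDM6B were -0.19 and -0.33. Transcripts of the first 4 have a GC content between 40.2% and 44.1%, and those of the last pair 61.4% and 62.2%. KDM6A, at 43.1%, stood outside the pattern, with a difference of only 0.03. Across the 10 members the difference had a Pearson correlation of -0.874 with transcript GC content, and across the 13602 tested genes with a GC value it was -0.512. Both are descriptions across genes of the same 3 libraries, and the part of GC content in the fold changes was not tested. Without DMSO replicate 1 limma called 4 members higher (JMJD1C, KDM5A, KDM5B and KDM6B) and 0 lower, where 4.62% and 8.46% of all genes were called higher and lower. With the GC and length correction instead and all libraries kept, 3 were called higher (JMJD1C, KDM5B and KDM6B), and 0 lower, where 3.64% and 10.8% of all genes were called higher and lower.

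**Figure D3:**
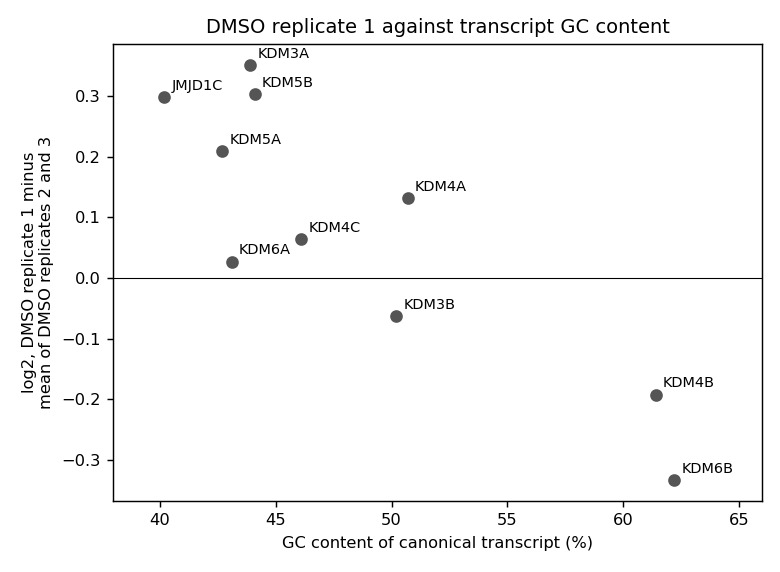
Difference of DMSO replicate 1 from the mean of DMSO replicates 2 and 3 on the log2 scale (vertical axis) against the GC content of the canonical transcript in percent (horizontal axis), 1 point per demethylase gene. The difference goes from 0.35 in KDM3A, at a GC content of 43.9%, to -0.33 in KDM6B, at 62.2%.

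Levels were compared between genes per kilobase of the canonical GENCODE transcript, as mean normalized count per kb ± SD over 3 libraries. In DMSO the order was KDM3B (676 ± 17.1), KDM3A (442 ± 64.5), KDM4B (380 ± 29.1), JMJD1C (333 ± 41.2), KDM5A (289 ± 24.7), KDM6B (244 ± 34.7), KDM5B (170 ± 21.3), KDM4A (127 ± 7.25), KDM6A (125 ± 1.98) and KDM4C (80.5 ± 4.49). The genes of the KDM3 family thus took 3 of the highest 4 places. Neighbours whose libraries overlapped in DMSO were KDM4B and JMJD1C, JMJD1C and KDM5A, KDM5A and KDM6B, and KDM4A and KDM6A. With YK-4-279 the order was the same except that KDM6B, at 310 ± 17.9, stood above KDM5A, at 304 ± 6.03, and this was the only pair of neighbours that overlapped. The level per kb depends on which transcript is expressed, which was not measured. Without DMSO replicate 1 the order in DMSO was the same except that KDM6A, at 125 per kb, stood above KDM4A, at 123. The coefficient of variation in DMSO went from 1.58% in KDM6A to 14.6% in KDM3A and was larger than with YK-4-279 in 10 of 10 genes, but without DMSO replicate 1 in 4 of 10, and that of KDM3A was then 0.453%, against 3.18% with YK-4-279.

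**Figure D4:**
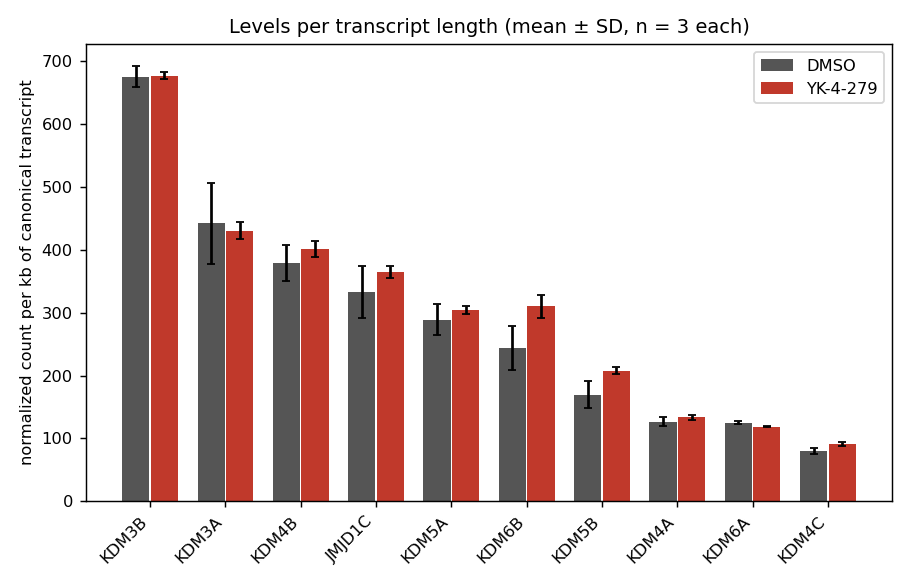
Mean level of the 10 demethylase genes in DMSO (gray) and YK-4-279 (red), in normalized counts per kb of the canonical transcript from 0, with bars of ± 1 SD (n = 3 each). KDM3B is the highest, at 676 in DMSO and 678 with YK-4-279, and KDM4C the lowest, at 80.5 and 91.1.

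Over the 6 libraries, the log2 levels of KDM3A had a Pearson correlation of -0.951 with those of KDM3B, -0.885 with KDM4B, 0.791 with KDM5A and 0.749 with JMJD1C. Over the 5 libraries without DMSO replicate 1, an extreme point in each, these were -0.775, -0.229, 0.869 and 0.912. Other members turned, KDM6B from -0.626 to 0.522 and KDM6A from 0.343 to -0.681, and KDM4C went from 0.13 to 0.813. All points share the libraries and their scaling. Among the 10698 genes whose mean reached 100, the pattern most like that of KDM3A was that of ZFX, a zinc finger transcription factor gene (r = 0.997, rho = 1.0), followed by the chromatin regulator gene ADNP (r = 0.996, rho = 0.943) and FBXW11, a ubiquitin ligase subunit gene (r = 0.996, rho = 0.943). Without the pair of libraries farthest from the median, DMSO replicates 1 and 3, r was 0.999, 0.970 and 0.991. These are descriptions of 6 libraries in which the genes were picked for their likeness.

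Of the genes that the study considers beside KDM3A, 4 regulators of transcription (ETS1, PAX3, FOXO1 and SMARCA4) were looked at here and had 0 calls by limma, edgeR or DESeq2, with 0 higher and 1 lower at an unadjusted p under 0.05 in limma. ETS1 had 3478, 3191 and 3410 normalized counts in DMSO and 3366, 3343 and 3401 with YK-4-279, which is 0.01 on the log2 scale (standard error 0.057, 95% confidence interval -0.12 to 0.13, adjusted p = 0.974). PAX3 and SMARCA4, the latter a chromatin remodeler ATPase, had log2 fold changes of 0.07 (adjusted p = 0.616) and -0.04 (adjusted p = 0.731), and of 0.11 and -0.08 without DMSO replicate 1. FOXO1 had 2336, 1849 and 1887 normalized counts in DMSO and 1745, 1673 and 1676 with YK-4-279, which do not overlap, and its log2 fold change was -0.25 (adjusted p = 0.128), which became -0.14 (adjusted p = 0.0471) without DMSO replicate 1. Reads of the PAX3-FOXO1 fusion can fall on both genes and were not told apart from those of the unfused copies.

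Beyond the 10 demethylases, 8 lists of genes from the same chemistry were described, with 101 genes of which 99 were tested. Together 1 was called higher and 6 lower by limma, 1 and 5 by edgeR and 1 and 8 by DESeq2. Limma called 1.26% and 2.15% of all genes and edgeR 1.48% and 1.86%. DESeq2 called 2.03% and 3.36% of the 11769 genes to which it gave an adjusted p. Without DMSO replicate 1 limma called 7 higher and 17 lower (4.62% and 8.46% of all genes), without DMSO replicate 3 it called 2 in all (242 of all genes), and without YK-4-279 replicate 1, 2 or 3 it called 1 in each fit (19, 23 and 46 of all genes). Among the other JmjC genes, 19 of 20 tested, 0 were called by limma, edgeR or DESeq2, with 2 higher and 1 lower at an unadjusted p under 0.05 in limma and a median log2 fold change of 0.06. The most highly read of them, HIF1AN, which encodes an asparagine hydroxylase of hypoxia-inducible factors, had a log2 fold change of 0.04 (adjusted p = 0.757), which turned to -0.01 without DMSO replicate 1. Without that library 1 gene of the list was called higher and 1 lower. The amine oxidase demethylases with CoREST partners, 9 tested, had 0 calls by limma, edgeR or DESeq2, 1 higher and 0 lower at the unadjusted threshold, and a median of -0.01, with HDAC2 at -0.04 (adjusted p = 0.795). Without DMSO replicate 1 HDAC2 turned to 0.02, and 1 gene of the list was called higher and 0 lower.

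All 10 genes of the PRC2 list, whose complex writes the H3K27 methylation that KDM6A and KDM6B remove, had a log2 fold change below 0, with a median of -0.20, and 3 were called lower by limma, where 48.0% of all genes lay above 0 and 2.15% were called lower. The list had 5 called lower and 0 higher without DMSO replicate 1. EZH2, its catalytic subunit, fell from 2567, 2369 and 2339 normalized counts in DMSO to 2092, 2056 and 1976, which is -0.25 on the log2 scale (standard error 0.062, adjusted p = 0.0459), just past the threshold, and edgeR and DESeq2 gave adjusted p-values of 0.0545 and 0.0247. RBBP4 and RBBP7, histone-binding subunits that other complexes share, fell by 0.32 (adjusted p = 0.0129) and 0.27 (adjusted p = 0.0222) on the log2 scale. RBBP4 has processed pseudogene copies, so its count is uncertain where reads were shared. In each of the 3 called genes the groups did not overlap, as in 6 of the 10 in the list, against 15.1% of all genes.

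Of 12 H3K9 methyltransferase and reader genes, 1 was called lower and 0 higher (4 and 2 without DMSO replicate 1), and the list's median was -0.09 on the log2 scale. The called gene was CBX5, encoding the heterochromatin protein HP1 alpha, which had 8246, 7698 and 7784 normalized counts in DMSO and 6517, 6639 and 6896 with YK-4-279, a fall of 0.24 on the log2 scale (adjusted p = 0.0301). TRIM28, the most highly read of that list, was at -0.11 (adjusted p = 0.282, and 0.0315 without DMSO replicate 1). Of 16 H3K4 methyltransferase and COMPASS genes 0 were called by limma, edgeR or DESeq2 (1 higher and 2 lower at the unadjusted threshold, and 2 higher and 2 lower called by limma without DMSO replicate 1), with a median of 0.04 and KMT2D, the most highly read, at 0.21 (adjusted p = 0.127, and 0.0295 without DMSO replicate 1, at 0.13). NSD2, an H3K36 dimethyltransferase, was the 1 gene of 6 in its list that was called, lower by 0.24 (adjusted p = 0.0232), and fell by 0.25 on the log2 scale without DMSO replicate 1. That list had a median of -0.08.

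The cofactor and oxygen side of the chemistry was represented by enzymes that make or use 2-oxoglutarate or related acids and by hypoxia genes, KDM3A itself being a known target of HIF1A. Of 14 such metabolic enzymes 11 lay below 0, where 48.0% of all genes lay above it, with a median log2 fold change of -0.11, and limma and edgeR called 0, with 3 lower and 0 higher at the unadjusted threshold in limma 1 called lower by DESeq2 and 2 called lower by limma without DMSO replicate 1. IDH2, the mitochondrial isocitrate dehydrogenase and the most highly read, had a log2 fold change of -0.25 (adjusted p = 0.0646, and 8.19e-07 without DMSO replicate 1, at -0.32). Among 13 tested hypoxia factors and targets 1 was called higher and 1 lower. NDRG1 rose from 392.1, 378 and 401 to 640, 615 and 585 normalized counts (0.65 on the log2 scale, standard error 0.080, adjusted p = 0.00137), and BNIP3 fell from 815, 754 and 736 to 623, 598 and 606 (-0.33, adjusted p = 0.0284). Both are hypoxia-responsive genes, so the called targets moved in opposite directions, and HIF1A was at -0.13 (adjusted p = 0.465), which was -0.0003 without DMSO replicate 1. Without that library 1 gene of the list was called higher and 2 lower. The list's median was 0.04, near that of all genes.

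**Figure D5:**
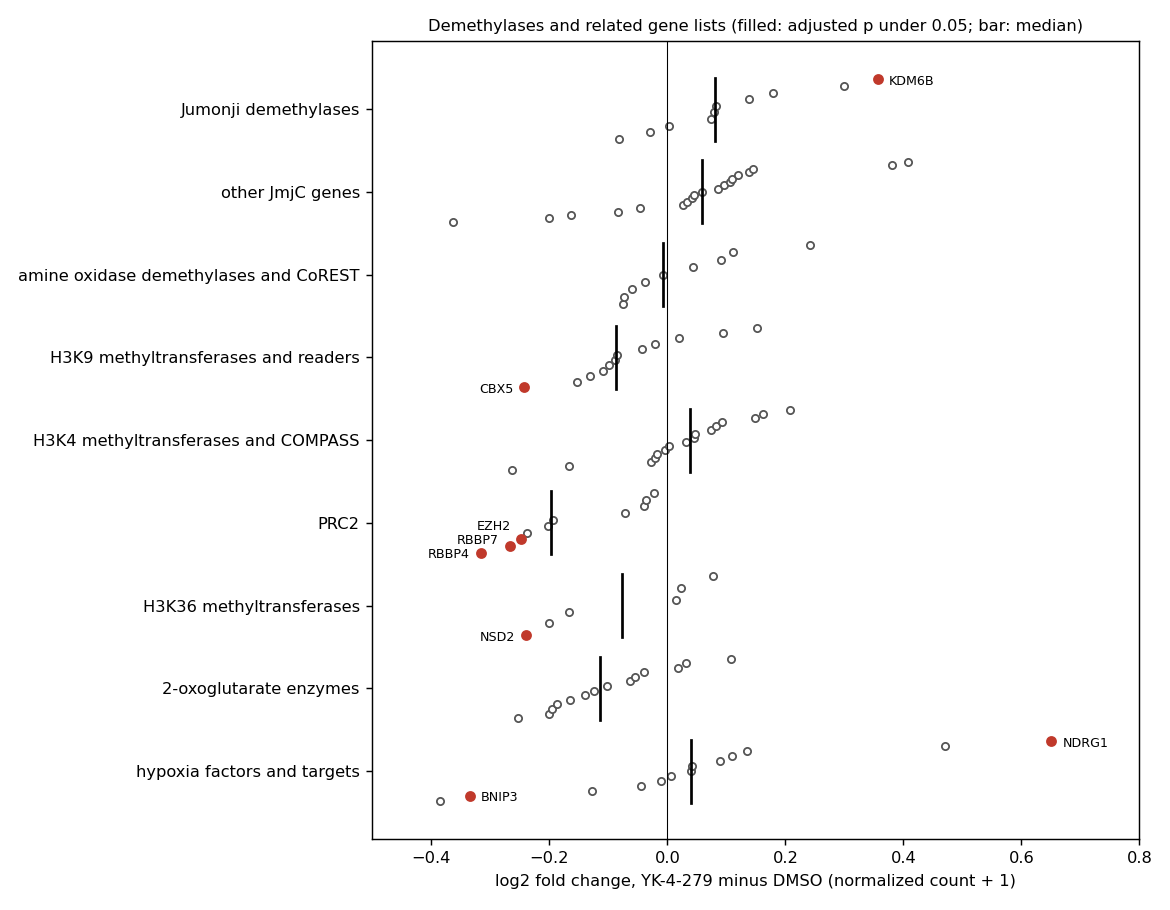
Log2 fold change, YK-4-279 minus DMSO on normalized count + 1 (horizontal axis), of every tested gene in the 10 demethylases and 8 related lists, 1 point per gene, filled and named where the limma adjusted p is under 0.05, with a vertical bar at each list's median. The demethylases have a median of 0.08 with KDM6B called, and all 10 PRC2 genes lie below 0 with EZH2, RBBP4 and RBBP7 called.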

How the data were processed

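mRNA was sequenced from Rh30 cells, 3 libraries per group. Per the labels and the study's methods, the authors trimmed reads with BBDuk, aligned and counted them with STAR 2.7.9a on hg38 and normalized with DESeq2 1.44.0. Each deposited value is the normalized signal of a gene (its normalized count), that is its reads over a scaling factor specific to the library. Dividing by each library's smallest value above 0 gave whole reads for 100% of values (tolerance 0.01), so the depth is known. The table had 35269 rows. One row with no name, of at most 6 reads per library, was left out, and 0 per-sample columns were unused. Whether counting used strand is not given in the sources used here.

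Because the values are not raw counts, limma 3.58.1 in R 4.3.3 (eBayes with trend, two-sided, no covariates) was fitted to log2(normalized count + 1) for those 13930 genes whose mean over the libraries reached 10, with Benjamini-Hochberg adjustment and a threshold of 0.05. Ratios within a library were compared by exact permutation tests. Alternatives were pseudocounts of 0.5 and 10, no filter and a filter at 100, quantile or TMM scaling, the replicate number as a block, eBayes with no trend, each library left out, edgeR 4.0.16 (quasi-likelihood) and DESeq2 1.42.0 on the whole reads, and correction of each library for GC content and transcript length. Same-numbered libraries did not deviate together (correlations -0.0985, -0.0269 and -0.0267), so the numbers were not used as pairs. Members and lists were chosen with earlier results of these data known. All members were named, as were, from each list, the most highly read gene and up to 3 called genes with the largest change, and the 3 genes most correlated with KDM3A. On reads simulated from these libraries, limma recovered 138 of 200 genes changed by 0.5 on the log2 scale, with 5 false calls (13846 genes tested in all). Of those changed by 1 it recovered 179 of 195, with 6 false calls (13842 tested in all). The simulated reads were drawn independently around 1 mean per gene and group. Shifts shared by many genes of a library, as in DMSO replicate 1, were therefore not simulated. Positions, canonical transcripts and GC content (97.6% of genes tested) came from GENCODE v44 and promoter sequences from RefSeq (GRCh38.p14). At least 1 RefSeq promoter entry matched each of the 10 members.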

Additional observations from a re-analysis of the deposited data

How the results depend on the processing

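KDM4C, KDM4A, KDM6A, KDM6B, KDM5B, KDM5A and JMJD1C kept the direction of their log2 fold change in all 17 alternatives. KDM3A turned to 0.018 with quantile normalization and ranged from -0.090 to 0.088 over fits that leave out 1 library. KDM3B turned to -0.033 and KDM4B to -0.0052 after the GC and length correction, and KDM3B ranged from -0.018 to 0.015 with 1 library left out. These 3 never passed the threshold.

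The number of members called higher, 1 in the report, was 0 with TMM scaling, quantile normalization, a replicate block and eBayes without trend, 2 with edgeR, 2 with DESeq2, 3 after the GC and length correction, and 0 to 4 with 1 library left out, 4 being without DMSO replicate 1. It was 0 for lower calls throughout, including the replicate block, under which KDM6B had an adjusted p of 0.0917. The number of other regulators called, 7 in the report, was 3 after quantile normalization, 2 under the replicate block, 1 by eBayes without trend, 24 after the GC and length correction and 1 to 24 with 1 library left out. Over all genes, 475 calls (176 higher and 299 lower) became 180 (79 and 101) with the block and 277 (132 and 145) after quantile normalization. They were 33 (30 and 3) by eBayes without trend and 1964 (495 and 1469) after the GC and length correction. Without DMSO replicate 1 they were 1823 (644 and 1179). Without YK-4-279 replicate 1, 2 or 3 they were 19 (15 and 4), 23 (16 and 7) and 46 (28 and 18). The causes were not tested. Recovery of changes under 0.5 on the log2 scale was not simulated. The coefficients of variation, the order of levels and the correlations with KDM3A without DMSO replicate 1 were added after the data were seen.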

Other observations

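With DMSO replicate 1 left out, 24 of the 99 related genes tested passed the threshold in limma, 7 higher and 17 lower, where 4.62% and 8.46% of all genes were called higher and lower. Those named here beyond the naming rule were chosen after their values were seen. Among other JmjC genes, KDM7A was higher by 0.49 on the log2 scale (limma adjusted p = 0.0121) and PHF2, a relative of KDM7A, was at -0.24 (adjusted p = 9.27e-05). In the PRC2 list, EED, the subunit that reads H3K27 methylation, and PHF19, an accessory subunit, were at -0.18 (adjusted p = 0.0239) and -0.26 (adjusted p = 0.00211), beside EZH2, RBBP4 and RBBP7. Among H3K4 methyltransferase genes KMT2C was at 0.22 (adjusted p = 0.000177) and the core subunit WDR5 at -0.21 (adjusted p = 0.000214). PDK1, a kinase that restrains pyruvate dehydrogenase, was at -0.27 (adjusted p = 0.00481).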
